A study of Mus musculus with 6 samples.

Results

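The genes described here encode the membrane skeleton of the red cell and the proteins that anchor it. They are *Slc4a1*, *Epb42*, *Sptb*, *Ank1*, *Epb41*, *Add2*, *Rhag*, *Dmtn* and *Tmod1*, 9 genes chosen by name, and 8 of them were measured. Each was read from the transcript cluster, the array's unit for a gene, that was annotated to it alone, and each of the 8 had a single such cluster among the 23332 on the array. *Epb41*, which encodes the protein that binds spectrin to actin, had no cluster in the annotation used here and was not analysed. Hearts of E9.5 mouse embryos were measured on Affymetrix Mouse Exon arrays, 3 of wildtype embryos (*Hic2 FL/FL; Mesp1+/+*) and 3 of mutants that lose *Hic2* in the *Mesp1* lineage (*Mesp1Cre/+; Hic2 FL/FL*). These genotypes are those of the array labels, which give both groups 2 floxed *Hic2* alleles, while the methods of the paper also allow wildtype embryos with 1. The mutants also have only 1 working copy of *Mesp1*, because Cre was knocked into that gene. *Mesp1*-driven Cre acts in anterior mesoderm, which gives rise to heart and to a subset of the blood lineage. Each array held RNA from a pool of 4 to 6 whole hearts, dissected with their blood from embryos without a visible phenotype. Embryos with Cre but intact *Hic2* were not analysed here.

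Spectrin is a long flexible rod built from paired chains, and in red cells it forms a lattice under the lipid bilayer. Ankyrin ties the beta chain to the anion exchanger known as band 3, and short actin filaments held by adducin, dematin and tropomodulin form the corners of the lattice. Inherited loss of these proteins makes red cells fragile and round or elliptic in shape. At this stage of mouse development the circulating red cells are nucleated primitive erythrocytes from the yolk sac, which still carry mRNA and fill the heart tube. Several of the genes also have work elsewhere, and *Tmod1* in particular caps the thin filaments of heart muscle.

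In the mutant hearts 7 of the 8 genes had higher means than in the wildtype hearts, by 0.43 or more on the log2 scale, and *Tmod1* differed by 0.01. *Slc4a1* had the largest difference, mutant minus wildtype, at 1.19, and the median of the 8 was 0.56. Over all 10439 annotated clusters that passed the intensity filter of the paper's methods (a linear mean over 100 in the higher genotype), which include all 8, the median difference was -0.09. All 8 genes lay above 0 (*Tmod1* by 0.01), against 28.2% of the clusters tested, and 4 of them (*Slc4a1*, *Rhag*, *Epb42* and *Ank1*) exceeded a fold of 1.5, against 0.565%. None was called at an adjusted p under 0.05 by limma (0 of 8, against 0.0671% of the clusters tested), an empirical Bayes linear model whose p-values were adjusted over all 10439 clusters by the Benjamini-Hochberg method. At an unadjusted p under 0.05 by limma, 6 of 8 were higher, against 1.68% of the clusters tested. The unmoderated test of the methods gave 0 of 8 after adjustment, and 2 of 8 (*Slc4a1* and *Sptb*) without it on log2 values. The share of all clusters called by that test was not counted here. The lowest mutant array lay above the highest wildtype array for 3 of 8 (*Slc4a1*, *Sptb* and *Epb42*), against 2.82% of the clusters tested. Leaving out an array can only widen such gaps, and the count was 7 without wildtype replicate 1, against 5.76% of the clusters then tested, and 7 without mutant replicate 2, against 4.63%. The number of pools, 3 per genotype, limits the precision of each value. Pool values are given in the order of replicates 1, 2 and 3, and SE is the standard error of the difference.

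**Figure D1:**
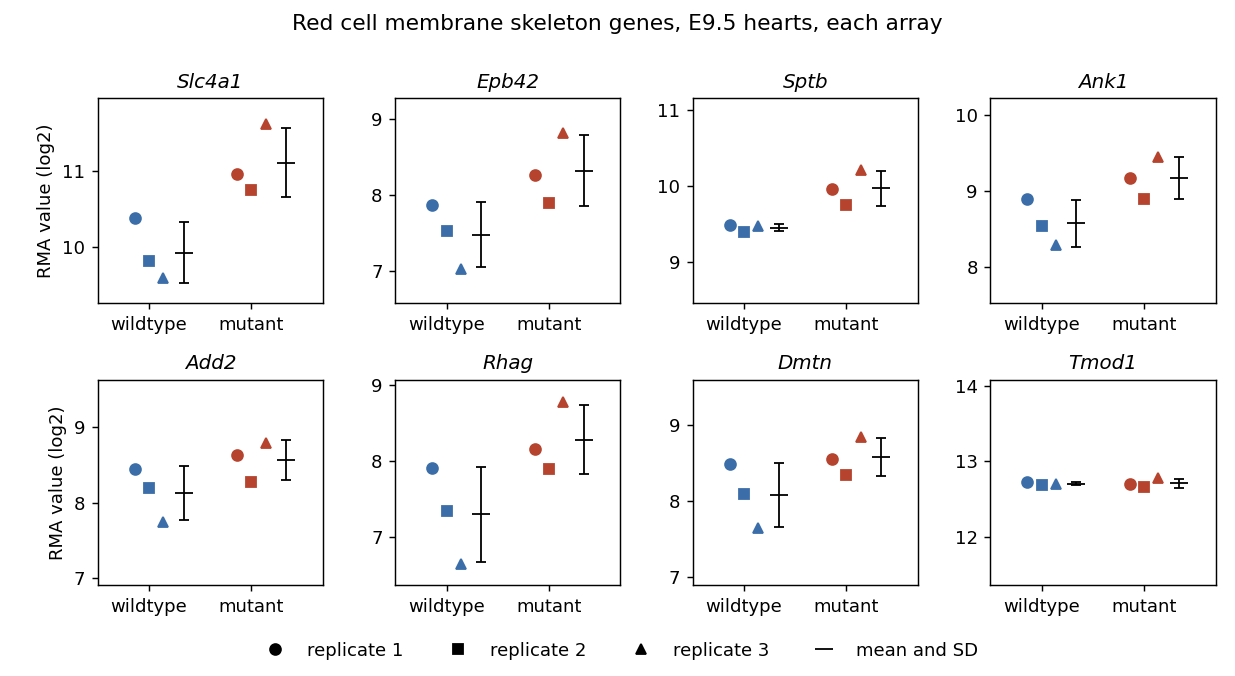
Log2 RMA value of each of the 8 genes on each array, wildtype in blue and mutant in red, with a symbol for each replicate number and the mean and SD (n = 3) beside them; every panel spans the same number of log2 units. The mutant values sit above the wildtype values without overlap for Slc4a1, Sptb and Epb42, and Tmod1 lies between 12.66 and 12.78 on all 6 arrays.

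The largest differences were in RNA of the genes whose proteins anchor the lattice to the membrane. The order of the genes by size was not tested. *Slc4a1* encodes band 3, the chloride and bicarbonate exchanger that is the most abundant protein of the red cell membrane and its main point of attachment. Its log2 values were 10.38, 9.81 and 9.59 in the wildtype pools and 10.96, 10.75 and 11.63 in the mutant pools. The genotypes did not overlap, and the lowest mutant pool lay 0.37 above the highest wildtype pool. The difference was 1.19 (SE 0.257, limma adjusted p = 0.326), a fold of 2.27, and it ranked 16 by size and 47 by p-value among the clusters tested. It kept an unadjusted p under 0.05 whichever array was left out, with differences between 0.93 and 1.41.

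*Rhag* encodes the Rh-associated glycoprotein, the partner of the Rh antigens in the ankyrin-bound complex. It had the widest wildtype spread of the 8 genes, with 7.91, 7.34 and 6.65 in the wildtype pools against 8.17, 7.90 and 8.79 in the mutant pools. Wildtype replicate 1 reached the lowest mutant pool, so the genotypes touched. The difference was 0.98 (SE 0.319, limma adjusted p = 0.606), a fold of 1.98, and without mutant replicate 3 it was 0.73 with an unadjusted p of 0.0558.

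*Epb42* encodes a relative of the transglutaminases without enzyme activity, which steadies the bond between band 3 and ankyrin. It was at 7.87, 7.53 and 7.02 in the wildtype pools and at 8.26, 7.89 and 8.82 in the mutant pools. Mutant replicate 2 cleared wildtype replicate 1 by only 0.01. The difference was 0.85 (SE 0.267, limma adjusted p = 0.606), a fold of 1.80.

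*Ank1* encodes ankyrin of red cells, with further short forms in skeletal muscle. Its values were 8.90, 8.54 and 8.29 in the wildtype pools and 9.18, 8.89 and 9.46 in the mutant pools. Here too wildtype replicate 1 met mutant replicate 2, and the other mutant pools lay above all wildtype pools. The difference was 0.60 (SE 0.186, limma adjusted p = 0.606), a fold of 1.51. Like *Slc4a1* and *Sptb*, both *Epb42* and *Ank1* kept an unadjusted p under 0.05 by limma with each array left out in turn, so 4 of the 8 genes did so. The share of all clusters that did so was not counted.

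The lattice itself was represented by *Sptb*, the beta chain of red cell spectrin, which is also made in muscle and brain. It was at 9.48, 9.40 and 9.48 in the wildtype pools and at 9.96, 9.75 and 10.21 in the mutant pools. The wildtype pools lay within 0.09 of each other, and the lowest mutant pool was 0.27 above the highest of them. The difference of 0.52 (SE 0.128, limma adjusted p = 0.460), a fold of 1.43, ranked 72 by p-value among the clusters tested.

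At the actin junctions the differences ran from 0.01 to 0.50. *Dmtn* encodes dematin, which bundles actin and links the junction to the membrane. It was at 8.49, 8.09 and 7.64 in the wildtype pools and at 8.55, 8.34 and 8.84 in the mutant pools, so mutant replicate 2 lay within the wildtype range. The difference was 0.50 (SE 0.214, limma adjusted p = 0.606). It was 0.28 without wildtype replicate 3, and it kept an unadjusted p under 0.05 only without wildtype replicate 1 or mutant replicate 2.

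*Add2* encodes beta adducin, which caps the fast-growing end of the short actin filaments and recruits spectrin to them. Its values were 8.44, 8.19 and 7.74 in the wildtype pools and 8.62, 8.27 and 8.79 in the mutant pools. The genotypes overlapped, with mutant replicate 2 below wildtype replicate 1. The difference of 0.43 (SE 0.197, limma adjusted p = 0.606) had an unadjusted p of 0.0561, and of 0.0483 with the replicate number as a block. It was 0.24 without wildtype replicate 3.

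*Tmod1* encodes tropomodulin, which caps the slow-growing end of actin filaments both in the red cell skeleton and in the sarcomere of heart muscle. It was at 12.73, 12.69 and 12.71 in the wildtype pools and at 12.70, 12.66 and 12.78 in the mutant pools. The 6 pools lay close together and the genotypes overlapped. The difference was 0.01 (SE 0.091, 95% confidence interval -0.20 to 0.22). That interval overlaps those of *Add2* (-0.01 to 0.88), *Dmtn* (0.01 to 0.99) and *Ank1* (0.17 to 1.02), and the differences between the genes were not tested. In these whole hearts the signal of *Tmod1* from red cells and that from muscle could not be parted. The heart muscle genes *Tnnt2* and *Myl7* were as level, at 13.60 to 13.65 and 13.94 to 14.06 over the 6 arrays. Of the 7 sarcomere genes tested, 0 passed an unadjusted p under 0.05 by limma, against 1.68% higher and 5.9% lower of the clusters tested. With 7 genes a count of 0 is near those shares.

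The upstream sequences of the genes were read from RefSeq (assembly GRCm38.p6), to set genes whose means differed between the genotypes beside *Tmod1*, whose means were level. Windows of 250 bases before an annotated start site were given for 6 of the 9 genes, and those of *Rhag*, *Epb42*, *Sptb* and *Tmod1* are printed 5′ to 3′ in the direction of transcription. They lie at chr17:40810899-40811148 on the plus strand, chr2:121036878-121037127 on the minus strand, chr12:76710548-76710797 on the minus strand and chr4:46038972-46039221 on the plus strand. Capitals mark letters that GATA factors can bind, the family of the erythroid regulator GATA1, searched on both strands as AGATAA, where the first letter could also be T and the last also G.
Rhag: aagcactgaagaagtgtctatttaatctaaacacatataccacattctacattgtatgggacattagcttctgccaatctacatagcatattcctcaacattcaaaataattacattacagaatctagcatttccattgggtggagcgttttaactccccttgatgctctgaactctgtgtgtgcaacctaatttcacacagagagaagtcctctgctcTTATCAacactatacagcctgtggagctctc
Epb42: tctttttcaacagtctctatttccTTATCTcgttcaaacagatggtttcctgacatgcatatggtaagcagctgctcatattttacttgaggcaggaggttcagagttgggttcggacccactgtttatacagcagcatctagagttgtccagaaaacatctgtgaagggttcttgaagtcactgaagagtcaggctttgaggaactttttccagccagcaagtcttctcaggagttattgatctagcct
Sptb: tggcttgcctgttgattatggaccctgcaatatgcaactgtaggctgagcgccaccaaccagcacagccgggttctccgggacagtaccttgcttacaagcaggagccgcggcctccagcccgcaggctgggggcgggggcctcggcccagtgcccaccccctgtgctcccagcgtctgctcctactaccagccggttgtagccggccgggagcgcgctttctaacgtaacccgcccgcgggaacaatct
Tmod1: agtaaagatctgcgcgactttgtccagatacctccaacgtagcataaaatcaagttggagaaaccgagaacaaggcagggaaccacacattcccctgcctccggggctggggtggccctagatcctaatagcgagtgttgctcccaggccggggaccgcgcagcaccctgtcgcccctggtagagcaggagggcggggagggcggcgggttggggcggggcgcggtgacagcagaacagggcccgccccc

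The windows of *Rhag* and *Epb42*, whose levels differed most among these 4 genes, each held these letters once. In *Rhag* they lay 31 to 26 bases before the start and in *Epb42* 226 to 221 bases before it, both times on the opposite strand. The windows of *Sptb* and *Tmod1* held none, that of *Add2* held 1, and of the 3 windows of *Epb41* 1 held them. Among all 32851 windows of that length, 26.5% held these letters. The letters CCNCNCCC, which the erythroid factor KLF1 can bind, were at 3 places in *Sptb* and 4 in *Tmod1*, some of them overlapping, and at none in *Rhag* and *Epb42*, against 45.9% of all windows with at least 1. GGGCANCC, from the binding sequence known for HIC1, the close relative of HIC2, was in none of these genes' windows and in 4.53% of all windows. These matches describe the letters of the windows only.

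Among the pools, the genes kept much the same order. Mutant replicate 3 was the highest of all 6 arrays for 8 of 8 genes, against 13.4% of the clusters tested. Wildtype replicate 1 was the highest wildtype array and mutant replicate 2 the lowest mutant array for 8 of 8 as well, against 59.5% and 53.3%. Wildtype replicate 3 was the lowest wildtype array for 6 of 8, all but *Sptb* and *Tmod1*, against 73.9%. Leaving *Tmod1* aside, Pearson's r between pairs of genes over the 6 arrays ran from 0.76 to 0.99 (21 pairs), and from 0.50 to 0.99 on deviations from the genotype means. The lowest values were those of *Sptb*, which had an r of 0.50 to 0.75 with the other genes on deviations, while the 15 pairs without *Sptb* and *Tmod1* ran from 0.88 to 0.99. All pairs share the same 6 pools, and the difference between genotypes enters the first of these ranges.

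**Figure D2:**
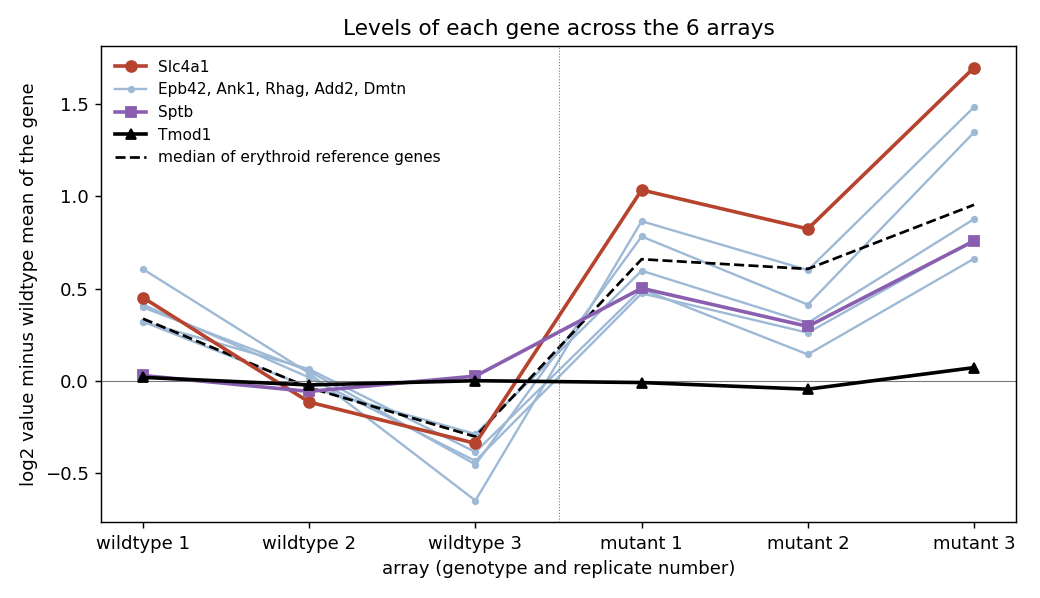
Log2 value of each of the 8 genes on each array, minus the gene's wildtype mean, with the median of 15 other erythroid genes dashed; lines only join the values of a gene, since the replicates have no order. Sptb is level over the wildtype arrays where the other genes vary, Tmod1 is level over all 6, and mutant replicate 3 is the highest array for each of the 8 genes.

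Other genes of red cells mostly differed in the same direction. A list of erythroid genes other than those of the membrane skeleton, among them *Gata1*, *Klf1*, *Alas2* and *Hemgn*, had 15 measured genes. Of these, 8 were higher and 0 lower at an unadjusted p under 0.05 by limma, against 1.68% and 5.9% of the clusters tested. At an adjusted p there were 0, and the median difference was 0.38. The medians of this list were 9.26, 8.88 and 8.62 in the wildtype pools and 9.58, 9.53 and 9.87 in the mutant pools, so the genotypes did not overlap either. The gene in the middle of the list was not the same on every array, so these medians also carry differences in brightness between genes. More red cells in a pool and more RNA of these genes in each red cell cannot be told apart in whole hearts. When this median entered the limma model as covariate, 0 of the 8 membrane skeleton genes were higher and 2 (*Rhag* and *Dmtn*) lower at an unadjusted p under 0.05. Their median difference was -0.26. In that fit *Sptb* had a difference of 0.29 (SE 0.244) and *Slc4a1* one of 0.04 (SE 0.242). *Rhag* stood at -0.53 (SE 0.201) and *Dmtn* at -0.47 (SE 0.177), each with a limma adjusted p of 0.273, from unadjusted values of 0.0361 and 0.0369. Because the covariate did not overlap between genotypes, this fit cannot part it from the genotype. The lower values are therefore not read as a result about these genes. The share of all clusters called in this fit was not counted.

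Set against the erythroid median of the same array, the genes parted. *Slc4a1* was 1.12, 0.93 and 0.97 above that median in the wildtype pools and 1.38, 1.23 and 1.75 above it in the mutant pools. Of the 8 genes it alone had all mutant pools above all wildtype pools on this scale, against 0.125% of the clusters tested, with a mean shift of 0.45. For 4 of the 8, *Ank1*, *Add2*, *Dmtn* and *Tmod1*, all mutant pools lay below all wildtype pools, against 93.8% of the clusters tested. *Ank1* kept within -0.35 to -0.33 in the wildtype pools and within -0.63 to -0.40 in the mutant pools. On the same scale the mean shift was 0.24 for *Rhag*, 0.11 for *Epb42*, -0.22 for *Sptb*, -0.24 for *Dmtn*, -0.31 for *Add2* and -0.73 for *Tmod1*. Since the median fell on different genes on different arrays, this scale also carries differences in brightness between genes. The sign of a shift, and the side on which the mutant pools lay, depend on that. These shifts are descriptions without a test.

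Markers of liver and yolk sac endoderm moved with the pools as well. *Afp*, which encodes alpha-fetoprotein, was at 7.89, 4.95 and 4.91 in the wildtype pools and at 7.03, 4.86 and 9.44 in the mutant pools, so it was high in wildtype replicate 1 and mutant replicate 3, where the membrane skeleton genes were highest within their genotypes. The median of the 4 endoderm markers measured, of 6 listed, was 4.90 to 6.43 in the wildtype and 5.11 to 8.52 in the mutant. All 4 lay above 0, against 28.2% of the clusters tested, with a median difference of 1.31 that rests largely on mutant replicate 3. Of them 1, *Ambp*, was higher at an unadjusted p under 0.05 by limma, against 1.68% of the clusters tested. *Afp*, *Alb* and *Ambp* passed the intensity filter only through the mutant pools, so for them a place above 0 is no result. The median difference rests on them too, and the remaining marker, *Ttr*, differed by 0.32 (SE 0.522). *Alb* and *Ambp* were at 8.28 and 8.10 in mutant replicate 3, and at most 5.33 and 5.86 in the other pools. The part of the endoderm markers in the difference of the skeleton genes was not tested. Of 4 platelet markers measured, 0 passed an unadjusted p under 0.05 by limma, against 1.68% higher and 5.9% lower of the clusters tested. With 4 markers that count is near those shares. Of 5 macrophage markers 1 passed the intensity filter.

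The partners of the skeleton fell into a group of surface proteins with higher means in the mutant pools and a group near 0. Of 17 listed, 14 were measured. Of these, 5 were higher and 0 lower at an unadjusted p under 0.05 by limma, against 1.68% and 5.9% of the clusters tested. At an adjusted p there were 0, and the median difference was -0.01. *Rhd*, the Rh antigen that pairs with the *Rhag* product, was at 8.35, 7.58 and 7.19 in the wildtype pools and at 9.30, 9.01 and 9.59 in the mutant pools, a difference of 1.60 (SE 0.274, limma adjusted p = 0.168). The others were *Kel*, the Kell antigen, at 1.41, *Ermap*, the Scianna antigen, at 0.90, *Icam4*, an adhesion protein, at 0.57, and *Stom*, the membrane protein stomatin, at 0.36. Of these, *Icam4* passed the intensity filter only through its mutant pools. The other 9 partners had differences between -0.17 and 0.08. They were *Add1* (alpha adducin, at -0.12), *Mpp1*, *Actb*, *Tpm1* and *Tpm3*, which encode parts of the junctions that many cell types use, and *Gypc* (glycophorin C, at 0.02), *Cd47*, *Slc2a1* and *Aqp1* at the surface.

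Relatives of the 8 genes that serve in other cells lay mostly below 0, as did most clusters tested. Of 20 listed, 18 were measured and 13 passed the intensity filter. Of these, 1 was higher and 2 were lower at an unadjusted p under 0.05 by limma, against 1.68% and 5.9% of the clusters tested, and 0 passed an adjusted p. Of the 13, 10 lay below 0, against 71.8% of the clusters tested, and the median difference was -0.17. The higher one was *Slc4a3*, an anion exchanger of heart and brain, at 9.23, 9.20 and 9.04 in the wildtype pools and at 9.95, 10.18 and 9.71 in the mutant pools. All mutant pools lay above all wildtype pools, by at least 0.48. Its difference was 0.79 (SE 0.135, limma adjusted p = 0.168) and ranked 15 by p-value, ahead of *Slc4a1*. Unlike the 8 membrane skeleton genes, *Slc4a3* was highest in mutant replicate 2 and lowest of the mutants in replicate 3. The widely expressed exchanger *Slc4a2* lay lower, at -0.24 (SE 0.103).

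Among the ankyrins, *Ank2*, which places channels and exchangers in the membrane of heart muscle cells, went the other way from *Ank1*. It was at 9.65, 9.55 and 9.29 in the wildtype pools and at 9.01, 8.83 and 9.31 in the mutant pools, a difference of -0.45 (SE 0.149, unadjusted p = 0.0156 and adjusted p = 0.606 from limma). The genotypes overlapped, since mutant replicate 3 exceeded wildtype replicate 3. *Ank3* was at -0.14. The spectrin gene *Sptbn1* had 2 clusters, which disagreed: the brighter, counted above, was at -0.04 (SE 0.088), and the other at 0.39 (SE 0.121, unadjusted p = 0.0106 from limma). The *Epb41* relatives *Epb41l1*, *Epb41l2* and *Epb41l3* were at -0.24, -0.18 and -0.19, the adducin gene *Add3* at -0.17, and *Tmod2* and *Tmod3* at -0.26 and 0.01, with standard errors of 0.101 to 0.139. Neither *Ank3* nor any of these 6 genes passed an unadjusted p under 0.05 by limma.

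**Figure D3:**
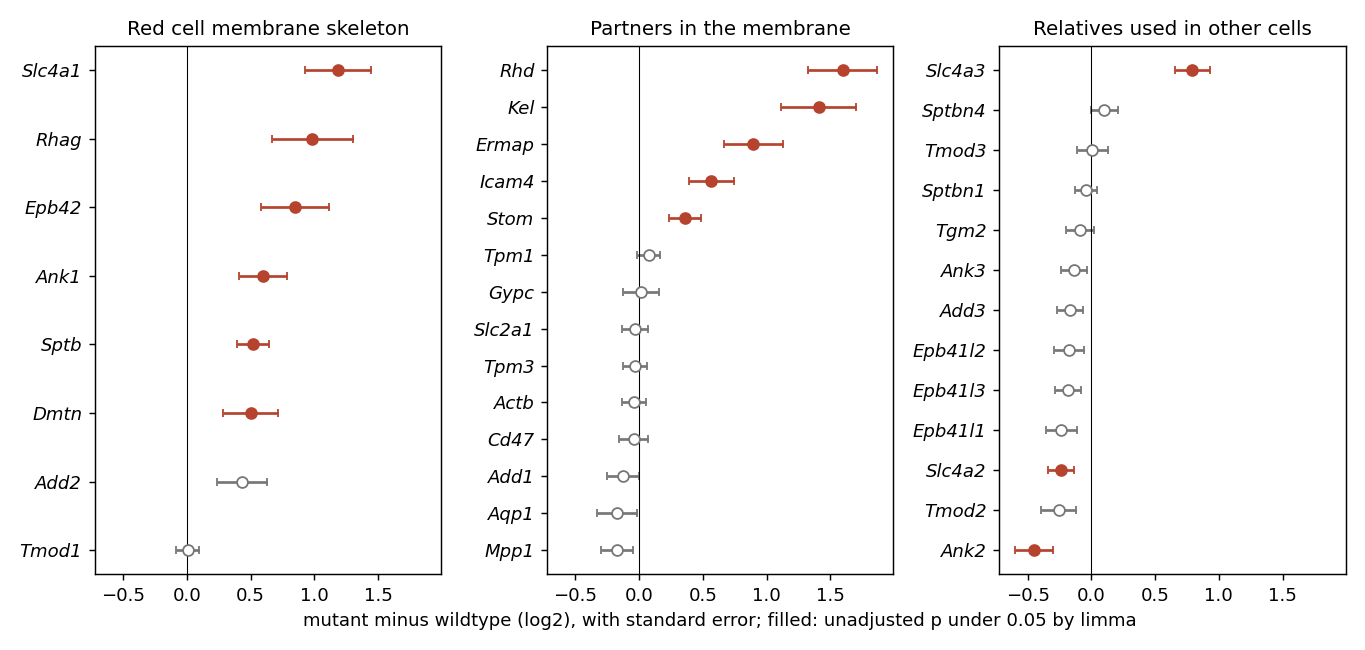
Log2 difference, mutant minus wildtype, with its standard error from limma for the 8 membrane skeleton genes, 14 partners and 13 relatives used in other cells that were tested; filled points have an unadjusted p under 0.05 and open points do not. Slc4a1 leads the first group at 1.19, Rhd the partners at 1.60 and Slc4a3 the relatives at 0.79.

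Among clusters of other genes, the 6 whose levels followed the mean of the 8 genes most closely over the 6 arrays were *Idh3a*, *Lmo1*, *Reep6* and *Csdc2*, the partner *Kel* and *Klf1* of the erythroid list, with Pearson's r between 0.980 and 0.985. *Klf1*, a main activator of red cell genes, was at 8.87, 8.15 and 7.69 in the wildtype pools and at 8.95, 8.58 and 9.48 in the mutant pools, a difference of 0.76 (SE 0.309, limma adjusted p = 0.606). *Idh3a*, an enzyme of the citric acid cycle, had the highest r, over a far narrower range, from 11.64 to 11.76. These r values rank likeness over 6 pools and carry no test.

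*Hic2* itself was at 9.35, 9.36 and 8.91 in the wildtype pools and at 8.27, 8.23 and 8.37 in the mutant pools, lower in every mutant pool, with a difference of -0.92 (SE 0.137, limma adjusted p = 0.125). The sources used here do not say whether its probes lie within the deleted part.

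**Figure D4:**
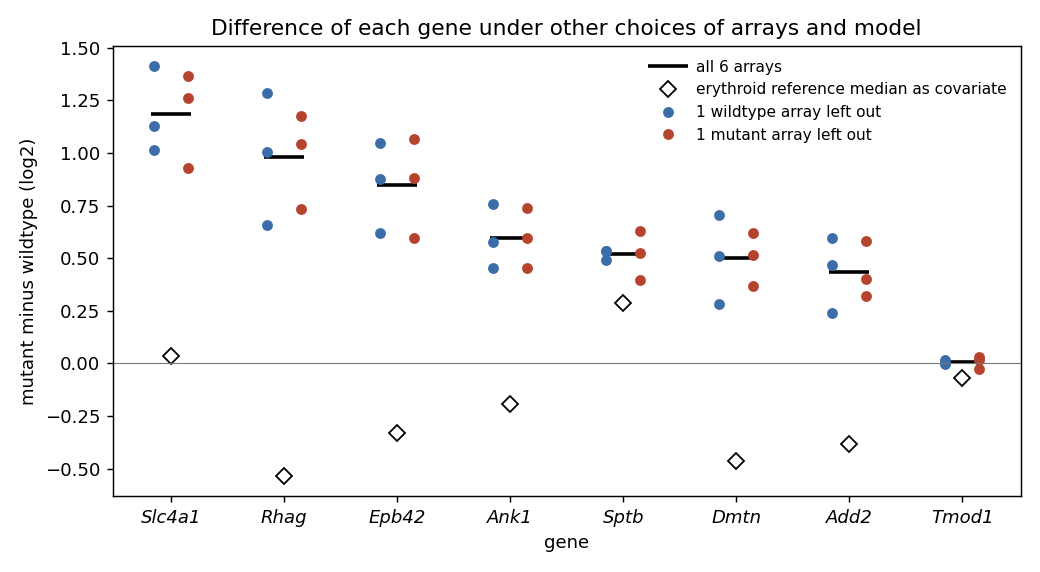
Log2 difference, mutant minus wildtype, of each of the 8 genes with all 6 arrays (bar), with 1 array left out (dots) and with the array medians of the erythroid list as covariate (diamonds). Differences of the 7 genes other than Tmod1 stay above 0 with any 1 array left out, and with the covariate only Slc4a1 and Sptb lie above 0.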

How the data were processed

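The authors hybridised labelled cDNA from pooled E9.5 hearts to Affymetrix Mouse Exon 1.0 ST arrays and deposited log2 values made by RMA in the Affymetrix Expression Console, on its core gene set, which corrects background, quantile-normalises the arrays and summarises probes per transcript cluster. The sources used here give neither its version nor a genome build. The deposited log2 values of all 6 arrays were used as they stood, and no 2 arrays were identical.

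Among 23332 clusters, 14996 had 1 gene in the annotation, 1019 had several and 7317 had no gene. Annotated clusters with a linear mean over 100 in the higher genotype (10439) were compared by lmFit and eBayes (limma 3.58.1, R 4.3.3) as mutant minus wildtype, with Benjamini-Hochberg adjustment and a threshold of 0.05. A gene with several clusters of its own was read from the one with the highest mean over all 6 arrays. Folds are 2 raised to the log2 difference. Probes differ in brightness, so no level of a gene is set against that of another gene, except through the array medians of the erythroid list. Arrays are separate pools, described in the paper as independent biological replicates, and their number limits the precision.

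The genes and lists were chosen with earlier results of these data known. Genes named are the 9 genes, their partners and relatives, *Hic2*, a few markers and the 6 clusters most like the mean of the genes. The other lists were erythroid, sarcomere, platelet, macrophage, neural and endoderm markers. Of 6 neural markers 4 were tested, 0 higher and 1 lower at an unadjusted p under 0.05 by limma, against 1.68% and 5.9% of the clusters tested. The lower one, *Stmn2*, passed the intensity filter only through its wildtype pools, so its direction is no result. Arrays of the same replicate number correlated at 0.31, 0.14 and 0.46 in their deviations from the genotype means. Some arrays of different number also correlated above 0.14, wildtype 2 with mutant 1 at 0.30 and wildtype 1 with mutant 2 at 0.23. The remaining unmatched pairs lay between -0.42 and -0.26. The block fit takes the numbers as pairs, but these values do not settle whether they are, and the array labels leave their meaning open. Alternatives were the methods' t-test on both scales, an intensity trend, robust variances, other intensity filters, median centring, quantile normalisation, cyclic loess, the block, the erythroid covariate, the mean over clusters and each array left out. The model was tested on simulated data. Promoter windows are RefSeq's. Plots were made in matplotlib 3.10.9 (Python 3.11.15).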

Additional observations from a re-analysis of the deposited data

How the results depend on the processing

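None of the 8 genes passed an adjusted p under 0.05 under any of the alternatives run (0 in all 19, by limma or the methods' t-test). The count higher at an unadjusted p under 0.05, 6 by limma, was 2 by the methods' t-test on log2 values, 1 by the t-test on linear values and 0 with the array medians of the erythroid list as covariate, and 4 to 7 when single arrays were left out. For this count the share of all clusters was taken in the main limma fit alone (1.68%), so the counts of the alternatives, the block among them, have no share beside them. The count without overlap between genotypes, 3 as deposited, was 5 after median centring (2.54% of all clusters tested), 7 after quantile normalisation (4.67%), 7 after cyclic loess (5.77%) and 3 to 7 when single arrays were left out. The median difference of 0.56 was -0.26 with the covariate and lay between 0.43 and 0.73 when single arrays were left out. With the covariate the differences were -0.33 for *Epb42*, -0.19 for *Ank1*, -0.38 for *Add2*, -0.53 for *Rhag*, -0.47 for *Dmtn* and -0.0705 for *Tmod1*. Leaving out single arrays gave *Tmod1* differences between -0.0257 and 0.0324. The cause of these changes was not tested, and the covariate itself did not overlap between genotypes. Of 152 single-gene values under the alternatives, 144 kept their direction and their side of the adjusted threshold. Many of them could not change direction, since alternatives that alter only the test on log2 values or the filter leave the difference as it was. The same holds for the mean over clusters, as each gene had a single cluster. With the replicate block the unadjusted count was 7 of 8, and the block changed the call of *Add2* alone.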
